A study of Mus musculus with 24 samples.

Results

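The genes described here are 10 regulators and effectors of brown fat: the coactivators Ppargc1a and Ppargc1b, the transcriptional regulators Prdm16, Ebf2, Zic1 and Lhx8, and the effectors Otop1, Elovl3, Dio2 and Kcnk3. They were chosen by name, and every probe of the array whose gene name equalled one of theirs was taken, which gave 13 probes of 55681 and 10 genes of 34947 gene names. Male mice of 2 inbred strains were compared, the obese and diabetes-prone NZO/HiBomDife (NZO) and the lean C57BL/6 (B6). All mice were on a high-fat diet (45% fat) and 6 weeks of age, so that no group had another diet. Brown fat, skeletal muscle and the white fat of the gonadal depot were each measured on 4 single-colour Agilent arrays per strain, 24 arrays in all. The labels do not say that the arrays of a group came from separate mice, so p-values measure the spread between these arrays.

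Brown fat burns fuel to make heat. Its adipocytes carry the uncoupling protein Ucp1, which lets protons return to the mitochondrial matrix without making ATP. Prdm16 and Ebf2 are transcriptional regulators that establish and keep brown adipocyte identity, and Zic1 and Lhx8 are transcription factors used as markers of classical brown fat. Ppargc1a and Ppargc1b encode PGC-1 alpha and PGC-1 beta, coactivators that drive mitochondrial genes, with Ppargc1a induced by cold through cyclic AMP. Dio2 encodes the deiodinase that activates thyroid hormone inside the cell, Elovl3 a fatty acid elongase, Otop1 a proton channel and Kcnk3 the potassium channel TASK1.

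Each level is a log2 signal from which its array's 75th percentile was subtracted, so 0 is that percentile. A level can be compared between arrays for 1 probe, and not between probes. A probe counted as detected on an array where the scanner software called it well above background. For a gene with more than 1 probe, the probe with the highest mean stood for it (the lead probe). The signal at the 75th percentile lay between 119 and 311 on the 24 arrays, and 51.9% to 59.3% of probes were well above background. The number of arrays limits the precision.

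The tissue labels were checked on marker genes chosen for each cell type, whose linear levels were summed. Brown adipocyte markers summed to between 12.13 and 12.43 (log2) in brown fat, but also to between 9.87 and 10.47 in the muscle arrays used. The sum in muscle did not follow Ucp1, which is among these markers. NZO muscle arrays 009 and 007 both summed to 10.25, with Ucp1 at 2.94 and -0.17. The sum is therefore no measure of brown adipocytes in muscle. Mature adipocyte markers summed to between 11.12 and 11.68 in white fat, and muscle fibre markers to between 13.71 and 14.07 in muscle. Muscle fibre markers also reached 8.06 to 10.11 on the B6 brown fat arrays, against 0.93 to 3.33 on those of NZO, and all 12 were lower in NZO. Macrophage markers summed to between 7.79 and 8.06 in NZO white fat and between 6.44 and 6.72 in B6 white fat, with 8 of 9 higher in NZO and 1 lower. The B6 muscle array 011 had mature adipocyte markers at 10.44, against 7.40 to 7.68 on the other B6 muscle arrays, and it was left out. The values with it are given beside the muscle results.

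Probe sequences are shown for Otop1 and Zic1, because the 2 probes of each did not give the same pattern. Each probe is 60 bases, and positions are those of the scanner files on mm9. The Otop1 lead probe lies at chr5:38695380-38695439 and its other probe at chr5:38694026-38694085, both on the plus strand. The Zic1 lead probe lies at chr9:91257301-91257360 and its other probe at chr9:91255425-91255484, on the minus strand. The printed probes are the Otop1 other probe and the Zic1 lead probe, which read through at least 1 frame with no stop codon, in lower case and 5′ to 3′.
Otop1 other probe: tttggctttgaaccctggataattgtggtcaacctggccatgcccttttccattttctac
Zic1 lead probe: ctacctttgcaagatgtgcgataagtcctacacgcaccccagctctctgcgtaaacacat
The Otop1 lead probe, not printed, has a stop codon in every frame, 35% G and C, and a run of 23 bases of only A and T. The Zic1 other probe, not printed, also has 1 frame with no stop codon, so an open frame does not set the Zic1 probes apart.

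The bases before the start site are shown for Ppargc1a, Dio2 and Otop1, the first 2 because they respond to cyclic AMP and the third because it had the largest strain difference of the 10 genes. They are the 250 bases upstream of the RefSeq start on GRCm38.p6, where 6 of the 10 genes matched: chr5:51567726-51567975 (minus strand), chr12:90739039-90739288 (minus strand) and chr5:38277154-38277403 (plus strand). Capitals mark matches to the cyclic AMP response element TGACGTCA or its half-site TGACG, searched on both strands. The half-site lies inside the full element. Positions count back from the start site.
Ppargc1a promoter: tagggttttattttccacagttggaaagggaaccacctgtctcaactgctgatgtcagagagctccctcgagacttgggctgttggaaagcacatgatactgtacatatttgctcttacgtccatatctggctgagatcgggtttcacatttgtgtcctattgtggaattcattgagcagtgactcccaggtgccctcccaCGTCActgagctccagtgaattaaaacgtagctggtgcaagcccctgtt
Dio2 promoter: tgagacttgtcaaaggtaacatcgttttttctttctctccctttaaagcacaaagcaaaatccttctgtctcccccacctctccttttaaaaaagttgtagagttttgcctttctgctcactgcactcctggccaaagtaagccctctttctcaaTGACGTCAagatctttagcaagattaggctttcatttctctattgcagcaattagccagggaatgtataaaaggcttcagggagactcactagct
Otop1 promoter: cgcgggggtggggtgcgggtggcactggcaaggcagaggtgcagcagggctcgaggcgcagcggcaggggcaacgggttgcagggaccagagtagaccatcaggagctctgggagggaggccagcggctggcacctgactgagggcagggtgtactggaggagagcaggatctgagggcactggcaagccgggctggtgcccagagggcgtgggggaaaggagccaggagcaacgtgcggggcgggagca
The Dio2 window held the full element at position -95, and 1.55% of 32851 windows of this length did. The Ppargc1a window held 1 half-site at position -49, and 17.8% of windows held at least 1. The windows of Prdm16, Zic1, Lhx8 and Otop1 held neither the full element nor the half-site. The ERR element AAGGTCA (4.08% of windows), the palindromic EBF motif (0.779%) and the DR1 motif of nuclear receptors (0.0335%) were not in any of the 6 windows.

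In B6, brown fat exceeded white fat for all 10 genes, against 34.3% of all genes tested that were higher (27.3% were lower and 61.6% called in either direction). The groups did not overlap for any of the 10, and they did not for 57.4% of all genes. The call of the Zic1 lead probe ended with arrays centred on the median (0.58, adjusted p = 0.0516). The fold over white fat was 533 for Otop1 (log2 difference 9.06, SE 0.16, adjusted p = 6.79e-08), 38.2 for Dio2 (5.25, SE 0.62, adjusted p = 0.000164) and 21.7 for Kcnk3 (4.44, SE 0.22, adjusted p = 1.96e-06). The other probe of Otop1 gave a smaller fold of 41.4 (5.37, SE 0.38, adjusted p = 9.63e-06). Elovl3 was higher by 7.92 (SE 0.94, adjusted p = 0.000171), with no fold given because only 2 of 4 B6 white fat arrays were well above background. Among the regulators the fold was 19.9 for Ppargc1b, 8.45 for Ppargc1a, 8.21 for Prdm16 and 2.37 for Ebf2. Lhx8 was well above background on all 8 brown fat arrays and on no array of white fat or muscle. It was at least 28.5-fold higher in brown than in white fat in B6 and at least 19.6-fold in NZO. Such a bound takes the dim group at the lowest signal called well above background, or at the probe's own where that was higher. In NZO 8 of the 10 genes were higher in brown fat, against 36.4% of all genes (26.2% lower, 62.6% in either direction), and Elovl3 (1.33, adjusted p = 0.383) and the lead probe of Zic1 (0.32, adjusted p = 0.0588) did not pass. Elovl3 passed without NZO brown fat array 003 (2.56, adjusted p = 0.0364) and with normexp background correction (1.17, adjusted p = 0.0341). Zic1 passed with normexp (0.44, adjusted p = 0.00227), with slide as a fixed block (0.51, adjusted p = 0.00739), without NZO brown fat array 009 (0.39, adjusted p = 0.0466) and when the authors' deposited table, which mixes its probes, was fitted (2.54, adjusted p = 6.89e-08). The NZO groups did not overlap for 9 of the 10, against 58.3% of all genes. Bulk tissue cannot tell fewer cells of a type from less RNA per cell.

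**Figure D1:**
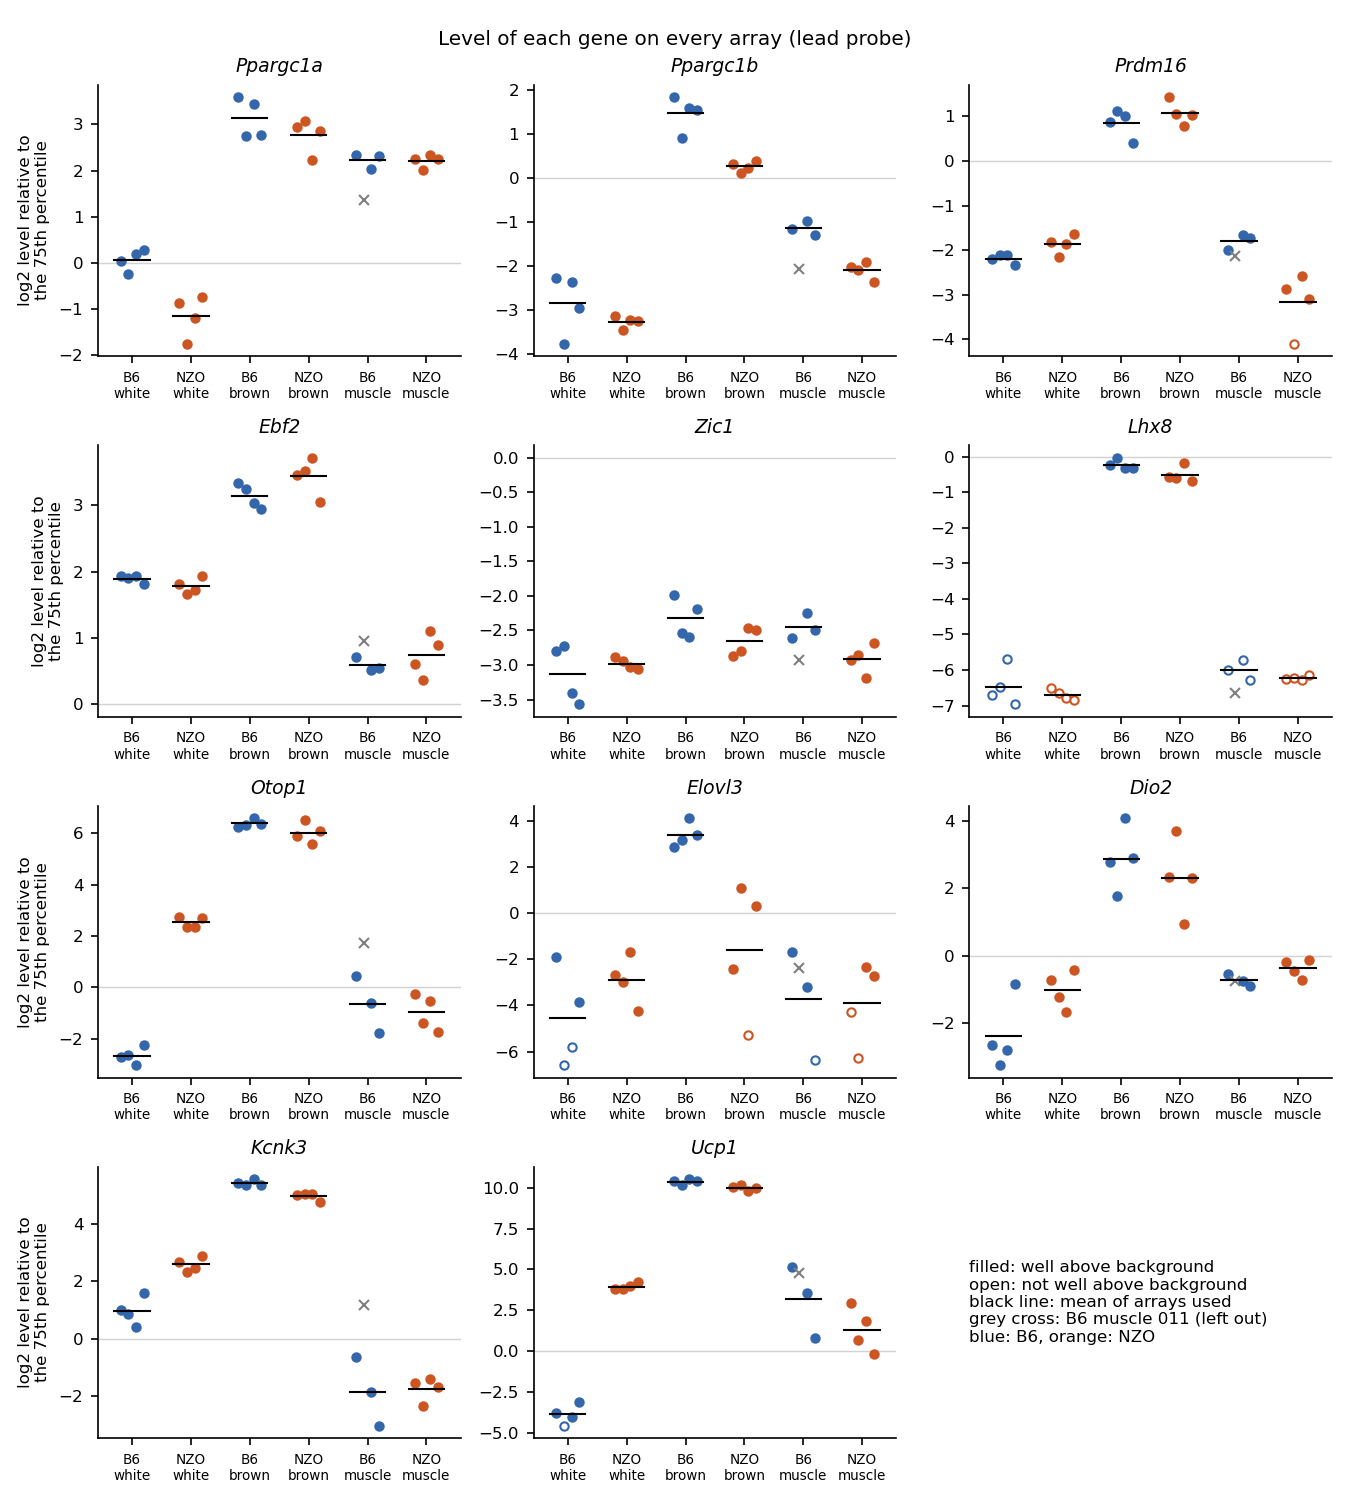
Each panel gives the log2 level of a gene's lead probe (0 is the array's 75th percentile) on every array of the 6 groups, and Ucp1 is shown beside the 10 genes. Filled points were well above background, open points were not, the black line is the mean of the arrays used, and the grey cross is the B6 muscle array left out. The 8 brown fat arrays lie above all 8 white fat arrays for 8 of the genes, and overlap them for the Zic1 lead probe and for Elovl3, where NZO brown fat spans -5.28 to 1.09.

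Against muscle, 9 of the 10 genes were higher in B6 brown fat, where 34.2% of all genes were (30.3% lower, 64.4% in either direction), and 9 did not overlap, against 66.1% of all genes. In NZO 8 of 9 tested were higher, where 34.6% of all genes were (26.9% lower, 61.5% in either direction), and 7 did not overlap, against 57.8% of all genes. The coactivator Ppargc1a differed least among the genes called. It was higher in brown fat by 0.92 (SE 0.25, adjusted p = 0.0137) in B6 and by 0.56 (SE 0.19, adjusted p = 0.0307) in NZO. The NZO groups overlapped, and leaving out any of 6 of the 8 NZO arrays ended the call. In B6 it ended without muscle array 015 (0.82, adjusted p = 0.0521). The second Ppargc1a probe gave 0.85 (SE 0.28, adjusted p = 0.0321) in B6 and 0.87 (SE 0.12, adjusted p = 0.000314) in NZO. On that probe the groups did not overlap in either strain. Kcnk3 had a fold of 153 over muscle in B6 and 104 in NZO, and Otop1 131 and 128. The other probe of Otop1 gave a fold of only 6.07 in B6 and 3.27 in NZO, so the size depends on the probe.

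Between the strains the genes divided. In white fat NZO had higher Otop1 and Kcnk3 and lower Ppargc1a, 2 higher and 1 lower of 9 genes tested, against 16.6% higher and 14.6% lower among all genes (31.2% in all). In brown fat Ppargc1b, Elovl3 and Kcnk3 were lower in NZO by limma's test, and 0 of the 10 were higher (also 0 at an unadjusted p under 0.05), where 7.51% of all genes were lower and 7.60% higher (15.1% in all). In muscle Ppargc1b and Prdm16 were lower in NZO among 8 tested, where 6.00% of all genes were lower and 4.43% higher (10.4% in all). The share called in white fat is near the background, and the strains did not overlap for 3 members in each tissue, against 35.4% of all genes in white fat, 21.5% in brown fat and 27.1% in muscle. The median strain difference of the tested members was 0.32 in white fat, -0.37 in brown fat and -0.18 in muscle, and that of all genes tested was 0.02, 0.01 and -0.04. Set against white fat, the strain difference was lower in brown fat for 3 of 10 genes, where it was lower for 9.97% and higher for 8.63% of all genes (18.6% in all). In muscle it was lower for 3 and higher for 1 of 9, where it was lower for 12.5% and higher for 7.98% of all genes (20.4% in all).

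**Figure D2:**
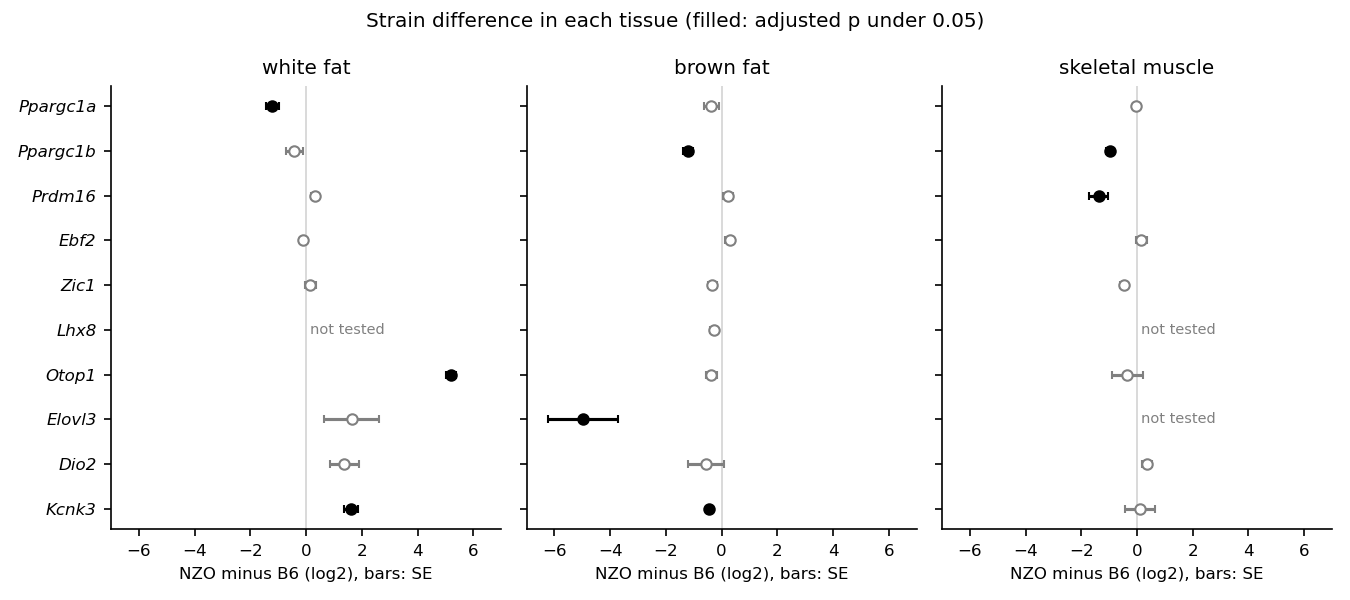
Points give the strain difference (NZO minus B6, log2) of each gene's lead probe in white fat, brown fat and muscle, and bars give the SE from limma. Filled points passed an adjusted p of 0.05: Otop1, Kcnk3 and Ppargc1a in white fat, Ppargc1b, Elovl3 and Kcnk3 in brown fat, and Ppargc1b and Prdm16 in muscle.

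Ppargc1a, the cold-induced coactivator, was lower in NZO white fat. It was at -0.88, -1.76, -1.20 and -0.75 on the NZO arrays and at 0.04, -0.25, 0.19 and 0.27 on those of B6. All 4 NZO arrays lay below all 4 of B6, a difference of -1.21 (SE 0.23, adjusted p = 0.00529), or 2.32-fold. The second probe gave -1.07 (SE 0.37, adjusted p = 0.0546), with 2 of 4 NZO arrays well above background. In brown fat the level was 2.77 ± 0.38 (SD, n = 4) in NZO and 3.14 ± 0.44 (SD, n = 4) in B6, and no difference was called (-0.37, SE 0.26, adjusted p = 0.405). In muscle it was 2.21 ± 0.14 (SD, n = 4) and 2.23 ± 0.17 (SD, n = 3), a difference of -0.02 (adjusted p = 0.937). The strain difference in muscle exceeded that in white fat by 1.19 (SE 0.34, adjusted p = 0.0184), a call that ended with arrays centred on the median (0.92, adjusted p = 0.108) and with slide as a fixed block (0.79, adjusted p = 0.147). The second probe gave 0.98 (adjusted p = 0.113) for that contrast. Between brown and white fat the strain differences of the lead probe differed by 0.84, which did not pass (adjusted p = 0.079). In order of level, brown fat of both strains came first, then muscle, then B6 white fat, then NZO white fat. The strains overlapped in brown fat and in muscle, and on the lead probe NZO brown fat overlapped muscle.

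Ppargc1b, whose product shares many targets with that of Ppargc1a, was lower in NZO in the other tissues. In brown fat it was at 0.33, 0.12, 0.24 and 0.38 in NZO and at 1.85, 0.92, 1.60 and 1.55 in B6. The groups did not overlap, and the difference was -1.21 (SE 0.19, adjusted p = 0.00394). The B6 brown fat arrays carried the muscle fibre transcripts described above. Ppargc1b was lower in B6 muscle, at -1.14 ± 0.17 (SD, n = 3), than in brown fat of either strain. The part of the muscle fibre transcripts in its brown fat difference was not tested. In muscle NZO was at -2.03, -2.10, -1.92 and -2.36 and B6 at -1.15, -0.97 and -1.30, again with no overlap. The difference was -0.96 (SE 0.14, adjusted p = 0.00724), and with B6 array 011, itself at -2.08, it was -0.72 (adjusted p = 0.152). In white fat the level was -3.27 ± 0.13 (SD, n = 4) and -2.84 ± 0.69 (SD, n = 4), and the difference of -0.43 did not pass (adjusted p = 0.320). Without B6 white fat array 011 it was -0.74 (adjusted p = 0.0302). Neither difference of strain differences between tissues passed (-0.78, adjusted p = 0.122 for brown and -0.53, adjusted p = 0.318 for muscle against white fat). The first passed with normexp background correction (-0.88, adjusted p = 0.000624) and when the authors' deposited table was fitted (-0.88, adjusted p = 0.00398).

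The partners of these coactivators and the regulators of mitochondrial biogenesis were a list of 22 genes. In white fat 20 were tested, 1 was higher and 2 were lower in NZO (16.6% and 14.6% of all genes), with a median of -0.02: Pprc1, a related coactivator, at 0.84 (SE 0.14, adjusted p = 0.00269), the deacetylase gene Sirt1 at -0.37 (SE 0.12, adjusted p = 0.0434) and the corepressor gene Ncor1 at -0.36 (SE 0.10, adjusted p = 0.0288). In brown fat 1 was higher and 1 lower of 21 (7.60% and 7.51% of all genes), with a median of 0.01. The immediate-early nuclear receptor gene Nr4a1 differed by -3.84 (SE 0.82, adjusted p = 0.0157) and Gabpa, an ETS factor that activates mitochondrial genes, by 0.66 (SE 0.12, adjusted p = 0.00871). Nr4a1 was at 7.03 in B6 muscle against 5.45 in B6 brown fat, whose arrays carried muscle fibre transcripts, and their part in its difference was not tested. In muscle 2 of 21 were lower (6.00% of all genes), Nr4a1 at -1.02 (SE 0.25, adjusted p = 0.0433) and the mitochondrial fusion gene Mfn2 at -0.55 (SE 0.13, adjusted p = 0.0455), with a median of -0.04.

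Prdm16 was at -1.81, -2.15, -1.87 and -1.64 in NZO white fat and at -2.21, -2.11, -2.10 and -2.34 in that of B6. These overlapped, and 0.32 (SE 0.13) was not called (adjusted p = 0.0954). It passed with quantile normalization (0.44, adjusted p = 0.0481) and without NZO array 012 (0.42, adjusted p = 0.0365). The brown fat means were 1.07 for NZO and 0.85 for B6, and 0.23 between them was not called (adjusted p = 0.495). In muscle it was at -2.87, -4.10, -2.58 and -3.09 in NZO, the array at -4.10 not well above background, and at -1.99, -1.65 and -1.72 in B6. The groups did not overlap, and the difference of -1.37 (SE 0.34) passed narrowly (adjusted p = 0.0488). With B6 array 011 it was -1.29 (adjusted p = 0.0522), and the call ended when NZO array 009 or 007 or any of the B6 arrays was left out (adjusted p 0.0653 to 0.149). The strain difference in muscle was lower than that in white fat by a firmer margin (-1.70, SE 0.35, adjusted p = 0.00236).

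Ebf2 followed the tissue more than the strain. It lay between 2.94 and 3.72 in brown fat, 1.66 and 1.94 in white fat, and 0.37 and 1.11 in muscle, and these tissue ranges did not overlap. The strain difference was -0.11 in white fat, 0.29 in brown fat (adjusted p = 0.279) and 0.16 in muscle, and the strains overlapped in all 3 tissues. None of these passed.

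The 2 Zic1 probes gave different pictures. On the lead probe, printed above, group means ran from -3.13 to -2.32, and it was well above background on every array. Brown exceeded white fat by 0.80 (SE 0.23, adjusted p = 0.0163) in B6 and by 0.32 (SE 0.13, adjusted p = 0.0588) in NZO. On the other probe white fat of both strains was not well above background on any of 8 arrays. Brown fat was at 0.50, 0.81, 0.81 and 0.17 in NZO and at 0.90, 1.27, 1.40 and 1.18 in B6, at least 41.2-fold above white fat in NZO and at least 75.5-fold in B6. Every NZO brown fat array was below every B6 one, by -0.61 (SE 0.17, adjusted p = 0.0484), where the lead probe gave -0.33 (adjusted p = 0.240). In muscle that probe was at -2.59, -3.64, -4.60 (not well above background) and -3.02 in NZO and at -1.57, -2.25 and -1.64 in B6. The groups did not overlap, and -1.64 (SE 0.46) was not called (adjusted p = 0.0677). White fat of both strains was below background, so its strain difference there was not compared with that in muscle.

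**Figure D3:**
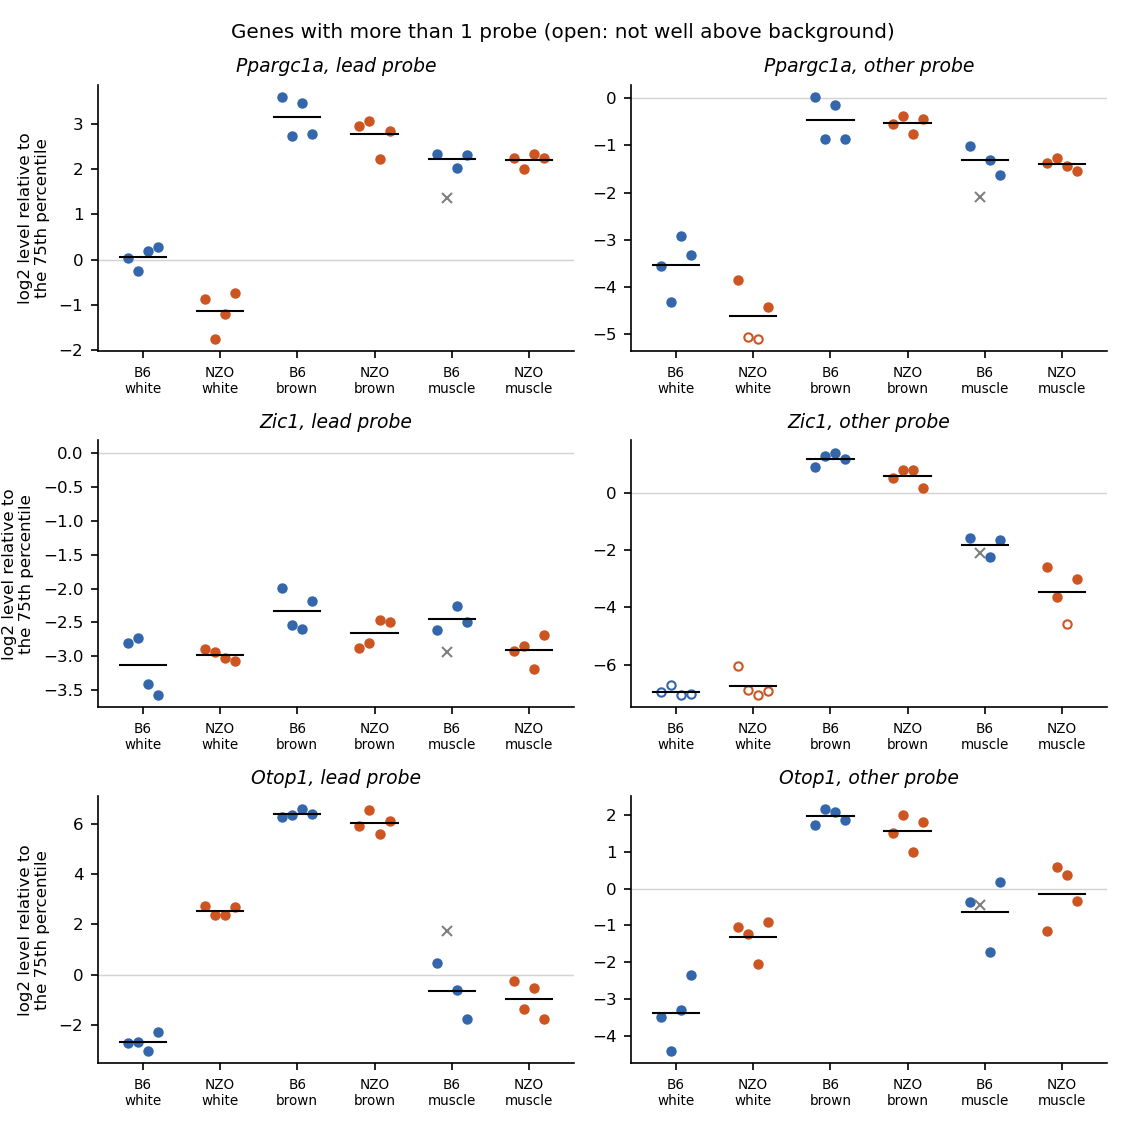
The genes with more than 1 probe are shown by array, with the lead probe on the left and the other probe on the right, as log2 level relative to the 75th percentile. Filled points were well above background, open points were not, and black lines are group means. The Zic1 lead probe spans group means of only -3.13 to -2.32, while its other probe separates brown fat from white fat, and both Otop1 probes place NZO above B6 white fat.

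Lhx8 was at -0.56, -0.59, -0.17 and -0.67 in NZO brown fat and at -0.23, -0.02, -0.32 and -0.31 in that of B6. These overlapped, and -0.28 (SE 0.13) was not called (adjusted p = 0.219). In white fat and muscle it was not well above background in either strain, on B6 muscle array 011 as on the others, and it was not tested there. The other PRDM, EBF, ZIC, LHX, otopetrin and two-pore potassium channel genes and the CtBP corepressors, the protein relatives and partners of these regulators, were a list of 22 names, of which 21 were on the array. In white fat 2 were higher and 1 lower of 11 (16.6% and 14.6% of all genes), with a median of -0.13: the potassium channel genes Kcnk2 at 1.26 (SE 0.20, adjusted p = 0.00217) and Kcnk6 at 0.54 (SE 0.10, adjusted p = 0.00556), and Ebf1 at -0.44 (SE 0.13, adjusted p = 0.0323). In brown fat only Kcnk2 passed of 11, where 15.1% of all genes did, with a median of -0.05. Kcnk2 was at least 3.34-fold higher in NZO, a bound because no B6 array was well above background. In muscle 0 of 11 passed limma's adjusted test (3 at an unadjusted p under 0.05), where 10.4% of all genes did, with a median of -0.07.

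Otop1 had the largest strain difference of the 10 genes in white fat. It was at 2.74, 2.36, 2.37 and 2.70 in NZO and at -2.72, -2.65, -3.03 and -2.26 in B6. The strains lay far apart with no overlap, and the difference was 5.21 (SE 0.18, adjusted p = 1.19e-06). The other probe, in a different stretch of the transcript, gave 2.10 (SE 0.43, adjusted p = 0.00732), at -1.04, -1.22, -2.04 and -0.90 against -3.48, -4.42, -3.31 and -2.36. Both probes thus gave a higher level in NZO, with sizes that differ. In brown fat the level was 6.02 in NZO and 6.39 in B6, and the difference of -0.37 did not pass (adjusted p = 0.255). The strain difference was lower by 5.58 in brown than in white fat (-5.58, SE 0.51, adjusted p = 4.45e-07) and by 5.55 in muscle (-5.55, SE 0.53, adjusted p = 1.16e-06). The other probe gave -2.49 (adjusted p = 0.00937) and -1.60 (adjusted p = 0.0912).

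Kcnk3 was at 2.68, 2.31, 2.47 and 2.89 in NZO white fat and at 1.01, 0.86, 0.42 and 1.59 in that of B6. All NZO arrays were above all B6 arrays, by 1.62 (SE 0.25, adjusted p = 0.00175). In brown fat the order was turned: NZO was at 5.01, 5.04, 5.03 and 4.77 and B6 at 5.40, 5.36, 5.55 and 5.33. The groups did not overlap, and the difference was -0.44 (SE 0.10, adjusted p = 0.0194). That call ended with arrays centred on the median (adjusted p = 0.131), with slide as a fixed block (-0.99, adjusted p = 0.192), with all groups in 1 fit (adjusted p = 0.456), with no filter on dim probes (adjusted p = 0.0597), and without NZO array 009 (adjusted p = 0.0522) or B6 array 015 (adjusted p = 0.0557). The strain difference was lower in brown than in white fat (-2.06, SE 0.48, adjusted p = 0.0055). The difference between muscle and white fat was -1.50 (SE 0.50, adjusted p = 0.0398). It was lost under slide as a fixed or random block, without the filter, and when any of 9 arrays was left out.

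Elovl3 was the most variable. In brown fat NZO was at -2.44, 1.09, -5.28 and 0.30, the array at -5.28 not well above background, and B6 at 2.85, 3.18, 4.11 and 3.39. The 4 B6 arrays all lay above the 4 NZO arrays, and the NZO arrays spread far more widely than those of B6. The difference was -4.97 (SE 1.26, adjusted p = 0.0328). It did not pass without NZO array 009 (adjusted p = 0.0925), without any of the B6 arrays (adjusted p 0.0617 to 0.0844), or without the filter on dim probes (adjusted p = 0.0661). Without NZO array 003, whose level was lowest, it passed at -3.73. Elovl3 in B6 muscle was at -1.68, -3.19 and -6.35, below every B6 brown fat array, and the part of muscle fibre transcripts in its difference was not tested. In white fat NZO was at -2.69, -3.00, -1.68 and -4.26 and B6 at -1.90, -6.59, -5.81 and -3.85, with 2 of 4 B6 arrays well above background, and the difference of 1.63 did not pass (adjusted p = 0.249). The strain difference in brown fat was below that in white fat by -6.59 (SE 1.82, adjusted p = 0.0165).

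Dio2 was at -0.72, -1.22, -1.66 and -0.41 in NZO white fat and at -2.63, -3.24, -2.78 and -0.82 in that of B6. B6 array 009 lay among the NZO arrays, and 1.36 (SE 0.52) was not called (adjusted p = 0.0762). Without that array it was 1.88 (adjusted p = 0.00485), and with arrays centred on the median 1.62 (adjusted p = 0.0395). In brown fat it was at 2.33, 3.71, 0.95 and 2.31 in NZO and at 2.80, 1.78, 4.08 and 2.89 in B6, with full overlap (-0.56, adjusted p = 0.621). In NZO brown fat Dio2 and Elovl3 were both lowest on array 003 and highest on array 011. So were Ppargc1a (2.22 and 3.07), Otop1 (5.58 and 6.52) and Ucp1 (9.82 and 10.19). Ppargc1b, Prdm16, Ebf2, Zic1, Lhx8 and Kcnk3 did not have this order. Within that group the share of probes well above background was lowest on array 003 (51.9%) and highest on array 011 (59.1%). The part of this share in the order was not tested. Of the 14 other elongase and thyroid hormone pathway genes, 3 were higher and 2 lower of 12 in white fat (16.6% and 14.6% of all genes), with a median of -0.35. In brown fat and in muscle 0 of 10 passed limma's adjusted test (3 and 4 at an unadjusted p under 0.05). Of all genes 15.1% and 10.4% passed there, and the median of the list was -0.01 in each. Those called in white fat were the thyroid hormone receptor partner Rxra at -0.91 (SE 0.16, adjusted p = 0.0034), the elongases Elovl1 at 0.61 (SE 0.13, adjusted p = 0.00893) and Elovl5 at 0.58 (SE 0.13, adjusted p = 0.0123), the transporter Slc16a10 at 0.55 (SE 0.16, adjusted p = 0.0306) and, with the smallest difference, the receptor Thra.

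The other brown fat genes were a list of 30, with Ucp1 among them. In white fat 13 were higher and 3 lower of 27 in NZO, with a median of 0.53 against 0.02 for all genes. The lipid droplet protein Cidea was at 3.77 (SE 0.33, adjusted p = 8.92e-05), the carnitine transferase Cpt1b at 3.22 (SE 0.14, adjusted p = 3.22e-06), the fatty acid binding protein Fabp3 at 3.06 (SE 0.33, adjusted p = 0.000266) and S100b at 2.51 (SE 0.23, adjusted p = 0.000117). The 3 lower genes were the adrenergic receptor Adrb3 at -1.69, Thrsp at -1.59 and the corepressor Nrip1 at -0.93, named after their values were seen. Of all genes, 16.6% were higher and 14.6% lower in white fat. In brown fat 1 was higher and 7 were lower of 28, with a median of -0.21, where 7.60% of all genes were higher and 7.51% lower: among them the transcription factor Irf4 at -1.36 (SE 0.26, adjusted p = 0.0102), the fatty acid transporter Slc27a2 at -1.32 (SE 0.33, adjusted p = 0.0292) and the developmental factor Tbx15 at -0.84 (SE 0.21, adjusted p = 0.0312), while Hlx was higher at 0.79 (SE 0.19, adjusted p = 0.0248). The B6 brown fat arrays carried muscle fibre transcripts (8.06 to 10.11, against 0.93 to 3.33 in NZO), and Tbx15 was at 4.58 in B6 muscle against -1.42 in B6 brown fat. Their part in the Tbx15 difference was not tested. Irf4 (-1.91 in B6 muscle) and Slc27a2 (-2.19) were lower in B6 muscle than in brown fat of either strain. The part of muscle fibre transcripts in the differences of Irf4 and Slc27a2 was not tested either. In muscle 3 of 28 were lower, where 6.00% of all genes were, with a median of -0.26: Acot11 at -1.57 (SE 0.31, adjusted p = 0.0224), Ppara at -0.72 (SE 0.17, adjusted p = 0.037) and Tbx15 at -0.71 (SE 0.12, adjusted p = 0.0108).

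Of 16 genes of beige or white fat, 3 were higher and 3 lower of 15 in NZO white fat, with a median of -0.38, a share near that of all genes (16.6% higher and 14.6% lower). The beige marker Tmem26 was at least 4.64-fold higher in NZO, where no B6 array was well above background. By the rule the others named were Agt, Hoxa5, Lep and Tnfrsf9, the last at 0.98 (SE 0.28, adjusted p = 0.0278). The angiotensinogen gene Agt was at -3.41 (SE 0.22, adjusted p = 1.94e-05), the positional gene Hoxa5 at -1.80 (SE 0.15, adjusted p = 7.59e-05) and the adipokine gene Lep at 1.24 (SE 0.20, adjusted p = 0.00222). In brown fat 2 were higher and 2 lower of 9 (7.60% and 7.51% of all genes), with a median of -0.11. In muscle 1 was higher and 3 lower of 12 (4.43% and 6.00% of all genes), with a median of -0.14.

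Because brown fat genes were higher in NZO white fat, each NZO white fat array was described as a mixture of the B6 white fat mean and the NZO brown fat mean. The share of brown fat was fitted on 156 reference genes, none of them among the 10, that were at least 8-fold higher in brown fat of both strains than in B6 white fat within 1 log2 unit between the strains in brown fat, and well above background on all 8 brown fat arrays. It was 1.25% ± 0.401 (SD, n = 4), from 0.908% to 1.79%. Ucp1 alone gave 1.51%. The base of the mixture is B6, so strain differences in white fat itself enter every value.

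Against this mixture the effectors Otop1 and Kcnk3 were higher and Ppargc1a lower. Otop1 was observed at 2.54 where the mixture gave -0.04, so it was higher by 2.59 ± 0.37 (SD, n = 4), and 98.1% of the reference genes had a smaller value. Its other probe was higher by 1.49 ± 0.44 (SD, n = 4). That value lies inside the range from -1.69 to 1.67 that holds the central 90% of the reference genes. Kcnk3 was higher by 1.32 ± 0.23 (SD, n = 4), with 91% of reference genes smaller, also inside that range. Ppargc1a was lower than the mixture, with a difference of -1.32 ± 0.45 (SD, n = 4) and 8.33% of reference genes smaller. Dio2 (0.64), Elovl3 (0.39), Prdm16 (0.17), Zic1 (0.10) and Ebf2 (-0.15) lay within the interquartile range of the reference genes, from -0.65 to 0.66, and Ppargc1b (-0.66) just below it. For Zic1, Ebf2, Ppargc1a and Ppargc1b the mixture level (-3.08, 1.93, 0.17 and -2.61) lay near the B6 white fat level (-3.08, 1.90, 0.08 and -2.73). Their values therefore mostly reflect the distance of NZO from B6 white fat and cannot show whether a mixture holds. The reference genes, all at least 8-fold higher in brown fat, are an unlike measure for them. The mixture levels of Prdm16 (-2.04) and Elovl3 (-3.30) also lay near those of B6 white fat (-2.19 and -3.45). Their place within the interquartile range cannot show whether a mixture holds either. Elovl3 also differed by -4.97 between the strains in brown fat, where the reference genes differed by at most 1 log2 unit. Lhx8 was not well above background on any NZO white fat array, and its mixture level of -5.60 lies below the mean detection floor of -4.79. The same holds for the other probe of Zic1, with a mixture level of -5.24, so neither shows whether brown fat transcripts of these genes were there.

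**Figure D4:**
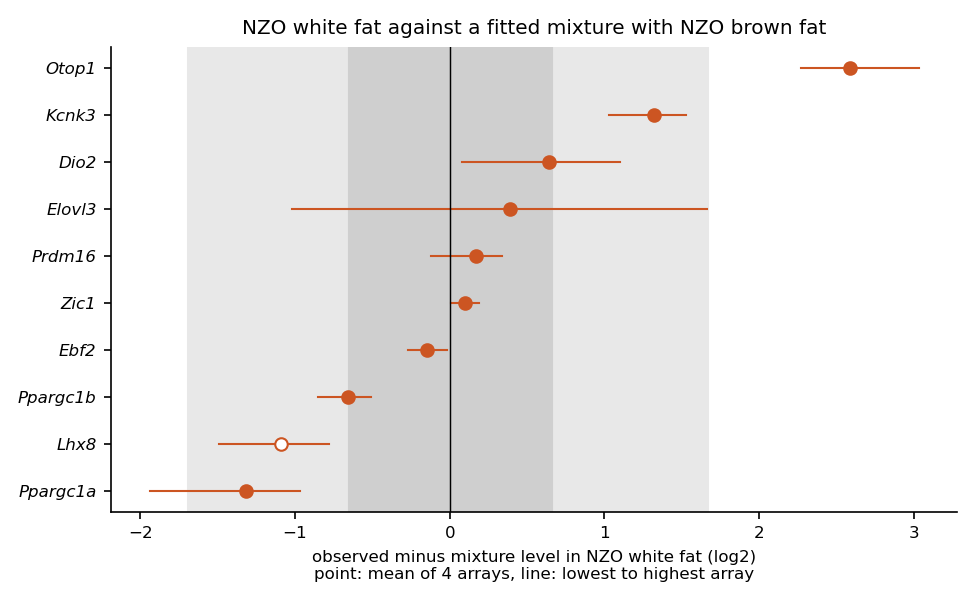
Points give the observed minus the mixture log2 level of each gene in NZO white fat, as the mean of 4 arrays with a line from the lowest to the highest array. The light band holds the central 90% of 156 reference genes and the dark band their interquartile range. Otop1, at 2.59 on its lead probe, lies outside the light band, and Kcnk3 at 1.32 and Ppargc1a at -1.32 lie inside it. Lhx8 is open because it was below background.

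Muscle also held brown fat transcripts, and unevenly. Ucp1 was at 2.94, 0.66, 1.84 and -0.17 on the NZO muscle arrays and at 5.14, 3.56 and 0.81 on those of B6, and at 4.80 on B6 array 011. On the 3 B6 arrays used, Otop1 (0.45, -0.59 and -1.77) and Kcnk3 (-0.65, -1.85 and -3.03) followed the order of Ucp1, while the other probe of Otop1 (-0.35, -1.71 and 0.18) was highest where Ucp1 was lowest. On the NZO arrays Kcnk3 (-1.53, -2.32, -1.40 and -1.67) did not follow Ucp1, and Otop1 (-0.25, -1.37, -0.54 and -1.74) did. The other probe of Otop1 (-1.15, 0.58, 0.38 and -0.33) did not, and was lowest where Ucp1 was highest. On B6 array 011 Otop1 was at 1.72 and Kcnk3 at 1.19, the highest of the 8 arrays. The other probe of Otop1, at -0.44 there, was not at its highest. The muscle strain differences of Otop1 (-0.34, adjusted p = 0.748), Kcnk3 (0.11, adjusted p = 0.913) and Dio2 (0.36, adjusted p = 0.242) did not pass. The part of these transcripts in the muscle levels of Otop1 and Kcnk3 was not tested.

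**Figure D5:**
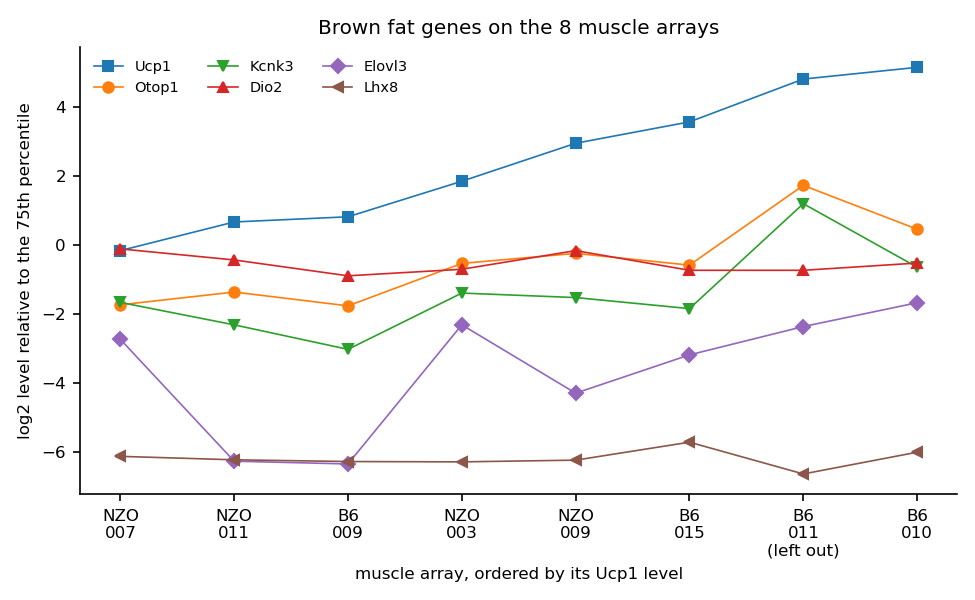
Lines join the log2 levels of the lead probes of Ucp1 and 5 of the genes on the 8 muscle arrays. The arrays are ordered by their Ucp1 level from -0.17 to 5.14, with B6 array 011 marked as left out. Otop1 ranges from -1.77 to 1.72 and Kcnk3 from -3.03 to 1.19, with the highest values on array 011, while Dio2 stays between -0.90 and -0.12 and Lhx8 was below background throughout.

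Slides held arrays of both strains in a few cases, and the values within them kept the direction of the calls. In white fat, within the 2 slides with both strains, Otop1 was higher in NZO by 4.96 and 5.59, Kcnk3 by 1.30 and 2.15, and Ppargc1a differed by -1.03 and -1.23. In brown fat, within the 1 such slide, Ppargc1b differed by -1.22, Elovl3 by -3.81 and Kcnk3 by -0.78. In muscle, within the 1 such slide, Ppargc1b differed by -1.05 and Prdm16 by -1.37. Most of these rest on 1 array a strain.

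For each member well above background in brown fat of both strains, the genes whose log2 levels followed it most closely over the 23 arrays were found by Pearson correlation. These arrays share 3 tissues, so the values describe the tissue pattern. Otop1 was most like Cidea (r = 0.975), S100b (0.974) and Aspg (0.964), Lhx8 most like Ppara (0.99), A530065N20Rik (0.988) and Ybx2 (0.984), and Kcnk3 most like Pfkl (0.992), Adtrp (0.99) and Ltbp2 (0.988). Ppargc1b was most like Sdha (0.97), Acadl (0.963) and Pank1 (0.962), and Dio2 most like Timm9 (0.964), Grpel1 (0.963) and Sod2 (0.955). Ppargc1a was most like Suox (0.976) and Fahd1 (0.971), Ebf2 most like Nadsyn1 (0.984) and Rasl12 (0.981), and Prdm16 most like Josd1 (0.963) and Gmps (0.959). The lead probe of Zic1 had no gene above 0.883.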

How the data were processed

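RNA from 3 tissues of 2 strains (RIN above 8, per the labels) was measured on Agilent single-colour arrays. The deposited scanner files hold the processed signal intensity of each spot, background-subtracted by Feature Extraction (version 11.0.1.1 per the file headers, 9.1 per the submitters' processing notes). The authors' deposited series value table holds, for each row, the mean of the unsubtracted median signal intensity over the spots of 1 transcript (37877 of 37877 rows within 0.0001), so it mixes probes of 1 transcript. It served as an alternative.

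Intensities were taken to log2, flagged spots dropped, spots of a probe averaged and the 75th percentile of each array subtracted. Gene symbols came from RefSeq through transcript accessions for 27656 probes and otherwise from the files. Probe names and mm9 positions come from the files. A gene was tested where its lead probe was called well above background by the scanner software throughout 1 or both of the groups. Differences were fitted with limma 3.58.1 (R 4.3.3) on the groups compared, tissue interactions on all groups, with Benjamini-Hochberg adjustment over all genes tested and a threshold of 0.05. The second or other probe of a gene was fitted in the same way among all probes. Its adjusted p-value is therefore over all probes tested, unlike that of a lead probe. The fit was tested on simulated data. The members and gene lists were chosen with earlier results of these data known. Of each list, at most the 4 genes with the largest difference among those called and measured on all arrays of the comparison are named, with others (Kcnk2 in brown fat, Tmem26, Thra, Adrb3, Thrsp and Nrip1) added after their values were seen. All 10 members are given, Ucp1 serves as the reference gene, and the 3 most similar genes of each member are named where they have a symbol, except 1 that is not reported here. Cell type markers were lists for muscle fibres, brown adipocytes, mature adipocytes, macrophages, mesothelium and liver. Mesothelial markers summed to between 3.85 and 5.21 in white fat and liver markers to between 2.34 and 7.84 over all groups, and the strains overlapped in both.

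Numbers in the array titles were checked as a pairing by the correlation of deviations from the group means. In NZO brown and white fat all 3 shared numbers correlated above 0.1 (0.11, 0.28 and 0.32), so these may be pairs. In B6 brown and white fat the values were 0.38, -0.07, -0.08 and 0.25, and in brown fat and muscle they lay between -0.15 and 0.18. The labels do not say what the numbers mark. The fits reported here use no block, and the fit with the number as a block is the alternative. Slide, read from the array barcode, was tried as a fixed and a random block. The B6 muscle array 011 was left out. No 2 arrays were identical (highest correlation 0.9854).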

Additional observations from a re-analysis of the deposited data

Results flagged for a closer look

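In groups of 4 arrays, the level of Kcnk3 in NZO brown fat stood apart on array 007, at 4.77 with the nearest other array at 5.01. This was 1 of 50 groups examined with Dixon's test, and chance flags about 1 in 20.

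The strain difference differed between tissues by a test of the interaction for 7 results. Between brown and white fat it differed by -5.58 for Otop1 (adjusted p = 4.45e-07), -6.59 for Elovl3 (adjusted p = 0.0165) and -2.06 for Kcnk3 (adjusted p = 0.0055), where 9.97% of all genes were lower (18.6% in either direction). Between muscle and white fat it differed by 1.19 for Ppargc1a (adjusted p = 0.0184), -1.70 for Prdm16 (adjusted p = 0.00236), -5.55 for Otop1 (adjusted p = 1.16e-06) and -1.50 for Kcnk3 (adjusted p = 0.0398), where 12.5% of all genes were lower and 7.98% higher (20.4% in either direction). These comparisons share the white fat arrays.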

How the results depend on the processing

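For the 10 genes over 9 comparisons, 1461 of 1542 alternative values stayed on their side of the threshold, 51 lost the call, 30 gained it and none of a called gene turned its sign. Values that were not called could turn: leaving out 1 array, the muscle strain difference ran from -0.48 to 0.71 for Kcnk3, from -0.90 to 0.21 for Otop1 and from -0.12 to 0.04 for Ppargc1a. In brown fat the 3 genes that differed between strains became 1 with no filter on dim probes and 0 with the number in the title as a replicate block, which also took all genes from 3138 to 389; these numbers do not pair the strains (correlations -0.09 and 0.08). Leaving out 1 array gave 1 to 3. In muscle the 2 became 1 with quantile normalization, median centring, no filter or slide as a random block, 0 with B6 array 011, and 1 to 2 leaving out 1 array; all genes fell from 2177 to 1235 (median centring), 1336 (no filter), 1068 (with array 011) and 953 to 1944 (leaving out 1 array; 1420 without NZO 003, 1398 without NZO 007, 953 without B6 010, 979 without B6 009). For the brown minus white fat interaction the authors' table gave 5 genes in place of 3. The causes were not tested. Leave-one-out counts were 3 to 4 in white fat, and the mixture share stayed between 1.07% and 1.37% leaving out 1 array and between 1.08% and 1.52% under the other settings, with an SD of 1.63 for reference genes at least 4-fold higher.

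Median centring moved the median of all genes by 0.26 in the white fat comparison, -0.22 and -0.45 for brown against white fat in B6 and NZO, and -0.23 and -0.28 in the interactions. The split of calls became 4592 higher and 1525 lower, against 3591 and 3147, in white fat; 5362 and 7664, against 7414 and 5902, in B6 brown against white fat; 3795 and 7695, against 7810 and 5621, in NZO; 744 and 2441, against 1942 and 2242, and 730 and 3389, against 1824 and 2847, in the interactions. Quantile normalization gave 2133 and 2059 in the last. The white fat calls of Otop1, Kcnk3 and Ppargc1a passed under every alternative run. With the replicate block in NZO brown against white fat 8 of the 10 genes were called, as without it, and 12722 of all genes against 13431; it ended the call of Ppargc1a in NZO brown fat against muscle (0.56, adjusted p = 0.0728). No paired analysis was possible for the strains in white fat or muscle because the groups share fewer than 2 numbers.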
